A study of Homo sapiens with 8 samples.

Results

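A set of 9 genes of the oxidative stress response were followed in human U2OS osteosarcoma cells after knockdown of MEPCE: HMOX1, NQO1, GCLC, GCLM, TXNRD1, SRXN1, SLC7A11, NFE2L2 and KEAP1. They were taken by symbol, 9 of 80311 genes counted, and all 9 passed the filter on low counts, as did 43321 genes in all. HMOX1 was chosen by its measured rise after the knockdown in 1 of the 2 lines, Flp-In, and the other 8 genes are its regulators and companions in the same response. The siMePCE against siNC contrast in that line is therefore described for these 9 genes with no test.

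The study concerns MePCE, the enzyme that caps 7SK RNA, at R-loops and DNA breaks. AsiSI siMePCE and AsiSI siNC were U2OS- AiD-DiVA AsiSI -ER cells, in which the restriction enzyme AsiSI is brought into action by 4-OHT, given at 300 nM for 4 h from 92 h. Flp-In siMePCE and Flp-In siNC were U2OS-Flp-In-TREx cells, for which the labels state no 4-OHT. All 4 groups received siRNA in 2 rounds, at 0 and 48 h, either against MEPCE (siMePCE) or a control (siNC), were lysed at 96 h, and had 2 libraries each. Line and 4-OHT cannot be told apart. Nothing in the labels says that replicates were grown separately, and p-values then measure library-to-library spread alone, which may be technical.

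Total counts ran from 41431776 to 53695626 per library. MEPCE had 3.65 and 2.30 CPM (counts scaled to a common library size) in AsiSI siMePCE, against 29.3 and 29.3 CPM in AsiSI siNC. It had 5.35 and 4.84 CPM in Flp-In siMePCE, against 39.9 and 40.1 CPM in Flp-In siNC. A row on the same strand that overlaps MEPCE held 1.08 times its counts. Mitochondrial genes took 8.24% to 10.6% of counts under siMePCE and 5.23% to 5.91% under siNC. Of 10 markers of osteosarcoma and mesenchymal cells, 5 reached 1 CPM in every library, among them VIM and RUNX2, whereas SP7, ALPL, BGLAP, COL1A2 and TWIST1 did not. Their summed level was 1105 to 1128 CPM in AsiSI siMePCE, 1294 to 1508 CPM in AsiSI siNC, 780 to 826 CPM in Flp-In siMePCE and 1079 to 1092 CPM in Flp-In siNC, and its part in the results below was not tested.

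NRF2, the product of NFE2L2, is a transcription factor that KEAP1 holds for degradation under resting conditions. When electrophiles or oxidants modify KEAP1, NRF2 accumulates, pairs with small MAF proteins and binds antioxidant response elements in genes for glutathione, thioredoxin, heme and NADPH metabolism. BACH1 occupies the same elements as a repressor and is released by heme, and HMOX1 is the best known of its targets.

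The antioxidant response element has the core TGACNNNGC, which was searched on both strands in the 250 bases before each start in RefSeq promoters (GRCh38.p14, matched by symbol). Windows were found for 7 of the 9 genes, without HMOX1 and SLC7A11. The core stood in 4 of their 10 windows, in GCLM, TXNRD1 and KEAP1, and in 10.9% of 35116 windows of all genes. By gene it stood in 3 of the 7, and in 13.2% of 27305 genes. These counts were not tested against those shares. Bases farther from the start were not searched, so the other genes may hold the core there. The 5 matches are printed because they are where the letters of the element lie in these genes, 5′ to 3′ on the gene's strand, with the core in capitals (a match to its reverse complement reads GCNNNGTCA). A match is a description of letters and shows no binding.
GCLM, chr1:93909446-93909474, minus strand: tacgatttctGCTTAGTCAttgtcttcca
TXNRD1, chr12:104215670-104215698, plus strand: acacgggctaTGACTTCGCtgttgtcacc
TXNRD1, chr12:104286920-104286948, plus strand: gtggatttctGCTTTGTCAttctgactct
KEAP1, chr19:10502807-10502835, minus strand: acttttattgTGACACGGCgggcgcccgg
KEAP1, chr19:10502784-10502812, minus strand: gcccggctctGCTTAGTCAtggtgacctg
GCLM and 1 of the KEAP1 matches have the same 9 letters.

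HMOX1, chosen for its level in Flp-In siMePCE, was higher under siMePCE than under siNC in both lines. HMOX1 (ENSG00000100292, chromosome 22, 35776354 to 35790207, plus strand, hg19) encodes heme oxygenase-1, which breaks heme down to biliverdin, iron and carbon monoxide. It had 338 and 374 CPM in Flp-In siMePCE, against 53.1 and 63.9 CPM in Flp-In siNC, which is 6.08-fold higher (log2 2.60). The groups lay far apart compared with the distance between replicates, but HMOX1 was chosen by this contrast, so this is a description only. In AsiSI it had 45.6 and 108 CPM under siMePCE, against 18.9 and 31.4 CPM under siNC. Both siMePCE libraries were above both siNC libraries, but each pair of replicates was wide apart, and the higher siMePCE library held most of the difference.

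In AsiSI, HMOX1 rose 3.05-fold (log2 1.61 with an SE of 0.249, adjusted p = 2.55e-05 by edgeR's quasi-likelihood test with Benjamini-Hochberg adjustment over all genes). With each of the 8 libraries left out in turn, the log2 values ran from 0.85 to 2.08. Each such fit leaves 1 library in a group, whose own spread is then not measured. It therefore cannot show that the rise is reproducible. The value was 0.85 without AsiSI siMePCE replicate 2, the library with 108 CPM, which is smaller in size than that of SRXN1 (-1.23) in the same fit, and 2.08 without replicate 1 of that group. With robust estimation of each gene's spread, added after these replicates were seen, the adjusted p was 0.0748. Over the other alternatives that kept both libraries of each group compared, it lay between 1.55e-53 and 0.0039 (DESeq2). The higher AsiSI siMePCE library also had the larger mitochondrial share, 10.6% against 9.63% in replicate 1, and the lower MEPCE level, and their part in the result was not tested. In these bulk samples, more cells that express a gene and more RNA per cell cannot be told apart.

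**Figure D1:**
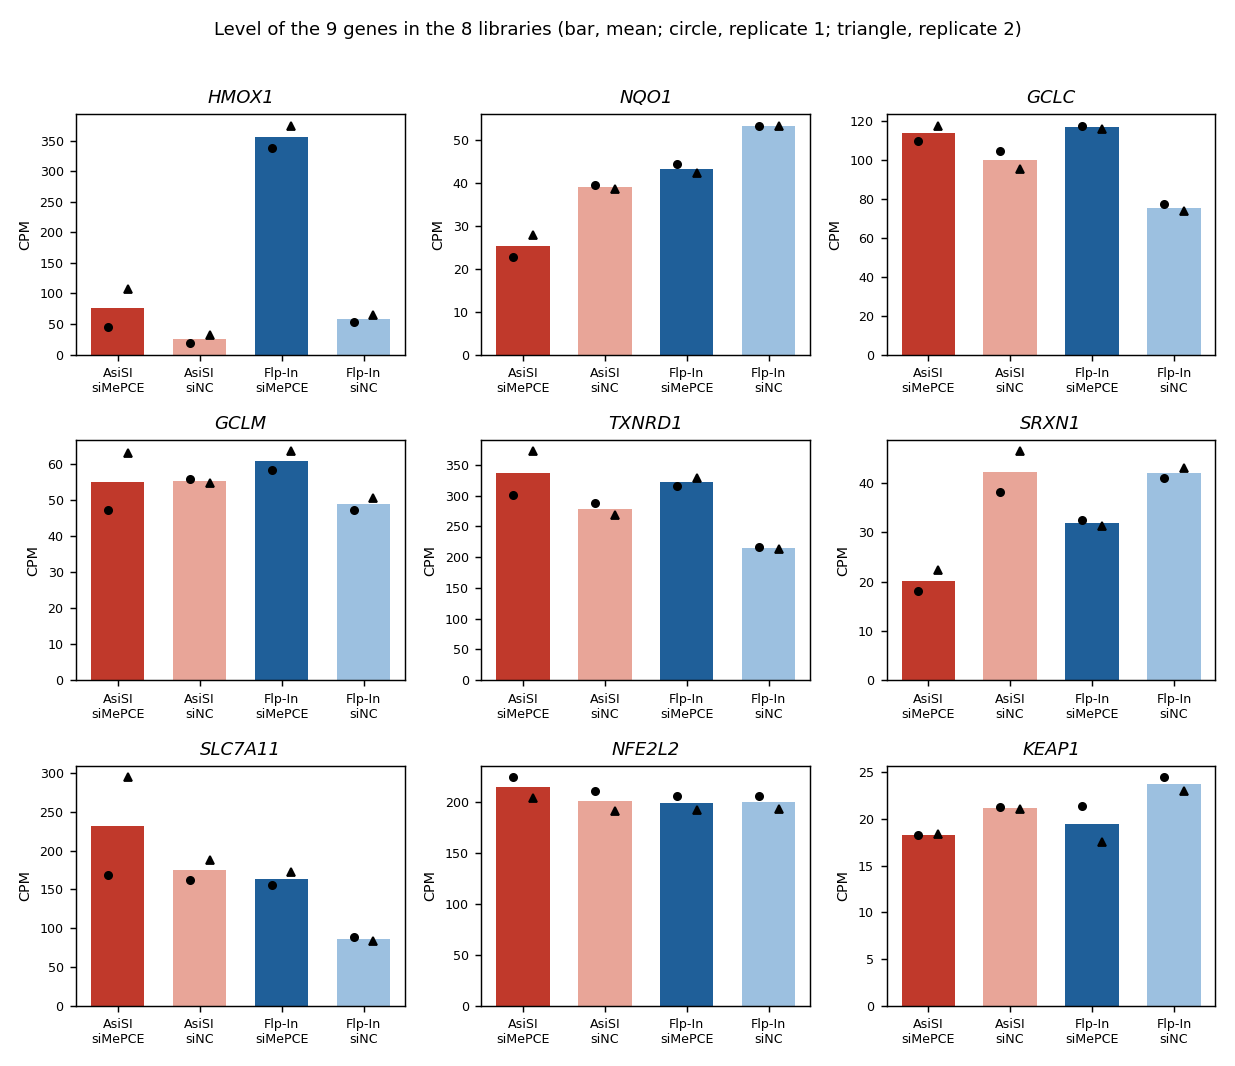
Level of each of the 9 genes in CPM (linear axes from 0); bars are means of the 2 libraries of a group, circles replicate 1 and triangles replicate 2. HMOX1 reaches 338 and 374 CPM in Flp-In siMePCE, above every other library, and its 2 AsiSI siMePCE libraries, 45.6 and 108 CPM, stand apart from each other.

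The ratio between the 2 replicates of HMOX1 was 2.37 in AsiSI siMePCE, and 0.0236% of 16950 genes with a mean of at least 5 CPM had as large a ratio there. The ratio was 1.66 in AsiSI siNC, where 0.372% of genes had as large a ratio. It was 1.11 in Flp-In siMePCE (41.8% of genes) and 1.20 in Flp-In siNC (7.62% of genes). The replicates of HMOX1 were thus most unequal in AsiSI and less so in Flp-In, where its difference was larger. SLC7A11 came next, with a ratio of 1.75 in AsiSI siMePCE and 0.472% of genes as far apart. In AsiSI siMePCE, replicate 2 over replicate 1 was 1.33 for GCLM, 1.24 for TXNRD1, 1.23 for SRXN1 and NQO1 and 1.07 for GCLC. It was 1.00 for KEAP1 and 0.908 for NFE2L2. The median ratio of higher to lower replicate there was 1.10 over the 16950 genes. The share of all genes with replicate 2 higher was not taken, so these ratios are no result about the 9 genes as a set. The quasi-likelihood spread of a gene, which is near 1 where its replicates vary as the fitted trend does, was 23.3 for HMOX1 and 8.50 for SLC7A11 before it was drawn towards that of other genes, and 0.374 to 1.94 for the other 7.

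**Figure D2:**
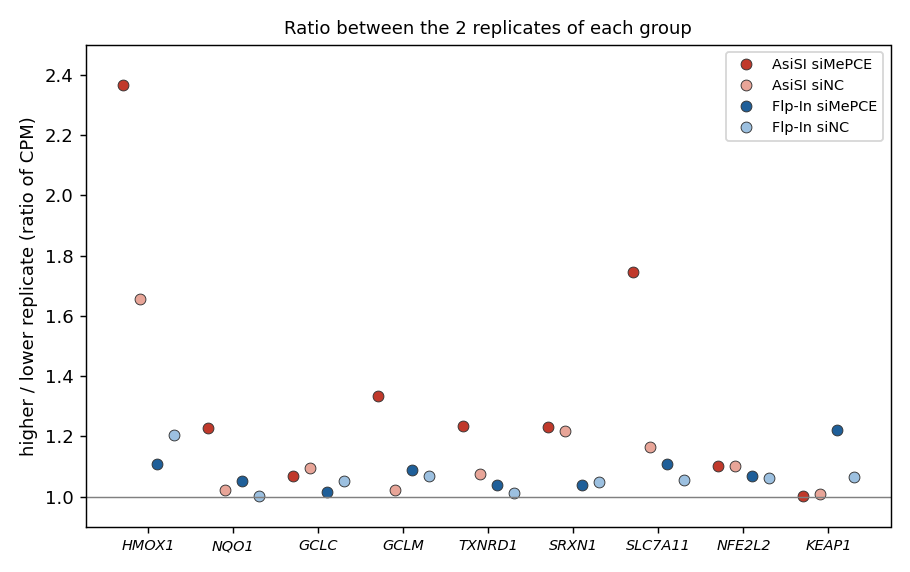
Ratio of the higher to the lower replicate (CPM over CPM, linear axis from 0.9, line at 1) for each gene and group, 1 point a group. HMOX1 in AsiSI siMePCE (2.37) and AsiSI siNC (1.66) and SLC7A11 in AsiSI siMePCE (1.75) lie above all other points.

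Neither regulator passed the test in AsiSI. NFE2L2 (chromosome 2, 178083395 to 178257484, minus strand, hg19), which encodes NRF2 itself, had 225 and 204 CPM in AsiSI siMePCE, against 211 and 191 CPM in AsiSI siNC. It had 206 and 193 CPM in Flp-In siMePCE, against 206 and 194 CPM in Flp-In siNC. The groups overlapped in both lines, and the AsiSI difference did not pass the test (log2 0.09, SE 0.0839, adjusted p = 0.409 by edgeR). KEAP1 (chromosome 19, 10596801 to 10614234, minus strand), the adaptor that brings NRF2 to its ubiquitin ligase, had 18.3 and 18.3 CPM in AsiSI siMePCE, against 21.2 and 21.1 CPM in AsiSI siNC. The groups did not overlap, but the difference did not pass the test (log2 -0.21, SE 0.123, adjusted p = 0.200 by edgeR). In Flp-In, KEAP1 had 21.4 and 17.5 CPM under siMePCE, against 24.5 and 23.0 CPM under siNC. These are RNA levels, and NRF2 is set mainly by its degradation, which they do not measure.

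NQO1 and SRXN1, both known NRF2 targets, fell in AsiSI. NQO1 (chromosome 16, 69740899 to 69760571, minus strand) encodes a quinone reductase and had 22.7 and 27.9 CPM in AsiSI siMePCE, against 39.5 and 38.6 CPM in AsiSI siNC. It fell by 0.62 on the log2 scale (SE 0.108, adjusted p = 9.13e-05 by edgeR). SRXN1 (chromosome 20, 627259 to 633844, minus strand) encodes sulfiredoxin, which restores overoxidized peroxiredoxins, and had 18.1 and 22.2 CPM in AsiSI siMePCE, against 38.1 and 46.4 CPM in AsiSI siNC. It fell by 1.07 on the log2 scale (SE 0.121, adjusted p = 5.00e-07 by edgeR), which is 2.09-fold lower. No siMePCE library of either gene reached a siNC library of AsiSI. Both calls were kept under all 16 alternatives, of which 8 left 1 library in a group, whose own spread is then not measured.

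In Flp-In the same 2 genes were lower by less. NQO1 had 44.3 and 42.1 CPM in Flp-In siMePCE, against 53.2 and 53.1 CPM in Flp-In siNC (log2 -0.30). SRXN1 had 32.4 and 31.2 CPM in Flp-In siMePCE, against 41.1 and 43.1 CPM in Flp-In siNC (log2 -0.40). The direction was thus the opposite of that of HMOX1 in both lines. An overlapping row on the same strand held 1.04 times the counts of SRXN1. Its log2 values were -1.04 in AsiSI and -0.41 in Flp-In, so SRXN1 cannot be told apart from it. NQO1-DT, on the opposite strand, held 0.823 times the counts of NQO1, with log2 values of -0.15 and 0.31. Another row on that strand held 0.113 times the counts of NQO1, with -0.94 and -0.36.

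TXNRD1 and SLC7A11 were higher under siMePCE, with calls in AsiSI that rested on single libraries. TXNRD1 (chromosome 12, 104609557 to 104744085, plus strand) encodes thioredoxin reductase and had 301 and 372 CPM in AsiSI siMePCE, against 289 and 269 CPM in AsiSI siNC. It rose by 0.27 (log2, SE 0.0891, adjusted p = 0.0196 by edgeR), but the value was 0.11 with an adjusted p of 0.461 without AsiSI siMePCE replicate 2, and 0.22 with 0.117 without AsiSI siNC replicate 2. In Flp-In it had 316 and 329 CPM under siMePCE, against 217 and 214 CPM under siNC (log2 0.58). The groups were well apart in Flp-In and close in AsiSI.

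SLC7A11 (chromosome 4, 139085251 to 139163503, minus strand) encodes the light chain of the cystine importer and had 169 and 295 CPM in AsiSI siMePCE, against 162 and 188 CPM in AsiSI siNC. The groups overlapped, although the fit called the rise (log2 0.41, SE 0.153, adjusted p = 0.0405 by edgeR). Without AsiSI siMePCE replicate 2 the sign turned (log2 -0.055, adjusted p = 0.765), and the call was lost with robust estimation of the spread (adjusted p = 0.242), with DESeq2 (0.259), without AsiSI siNC replicate 1 (log2 0.29, 0.265) and without Flp-In siMePCE replicate 1 (0.0527). In Flp-In it had 155 and 172 CPM under siMePCE, against 88.1 and 83.5 CPM under siNC, 1.91-fold higher with no overlap. SLC7A11-AS1, on the opposite strand, held 0.510 times its counts.

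The 2 subunits of glutamate-cysteine ligase, the first enzyme of glutathione synthesis, did not pass the test in AsiSI. GCLC (chromosome 6, 53362139 to 53481768, minus strand), the catalytic subunit, had 110 and 117 CPM in AsiSI siMePCE, against 105 and 95.3 CPM in AsiSI siNC (log2 0.18, SE 0.0864, adjusted p = 0.105 by edgeR). A stricter filter on low counts gave 0.26 with an adjusted p of 0.0108. GCLM (chromosome 1, 94350755 to 94375012, minus strand), the modifier subunit, had 47.2 and 62.9 CPM in AsiSI siMePCE, against 55.9 and 54.7 CPM in AsiSI siNC (log2 -0.01, SE 0.114, adjusted p = 0.975 by edgeR). The siMePCE libraries of GCLM lay on either side of the siNC libraries.

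In Flp-In both subunits were higher under siMePCE. GCLC had 117 and 116 CPM in Flp-In siMePCE, against 77.3 and 73.4 CPM in Flp-In siNC (log2 0.63). GCLM had 58.3 and 63.5 CPM in Flp-In siMePCE, against 47.3 and 50.5 CPM in Flp-In siNC (log2 0.32). Neither pair of groups overlapped. GCLC-AS1 held 0.749 times the counts of GCLC, with log2 values of 0.02 in AsiSI and 0.41 in Flp-In. An unnamed row held 0.886 times the counts of GCLM, with 0.03 and 0.31, so GCLM cannot be told apart from it. AGPS held 0.874 and HNRNPA3 0.603 times the counts of NFE2L2. All of these rows lay on the opposite strand, whereas no row overlapped HMOX1.

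In AsiSI, 5 of the 9 genes passed the test, 3 higher and 2 lower, where 38.1% of all genes tested did (16.8% higher and 21.3% lower), and the groups did not overlap for 6 of the 9, against 66.8% of all genes. In Flp-In the groups did not overlap for 8 of the 9, 5 higher and 3 lower, against 72.9% of all genes. With shares this high over all genes, these counts are no result about the 9 genes as a set. The AsiSI value minus the Flp-In value ran from -0.998 (log2) for HMOX1 to 0.098 for NFE2L2. The median over all genes tested was -0.017. These differences are given as a description, since they hold the Flp-In contrast by which HMOX1 was chosen.

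**Figure D3:**
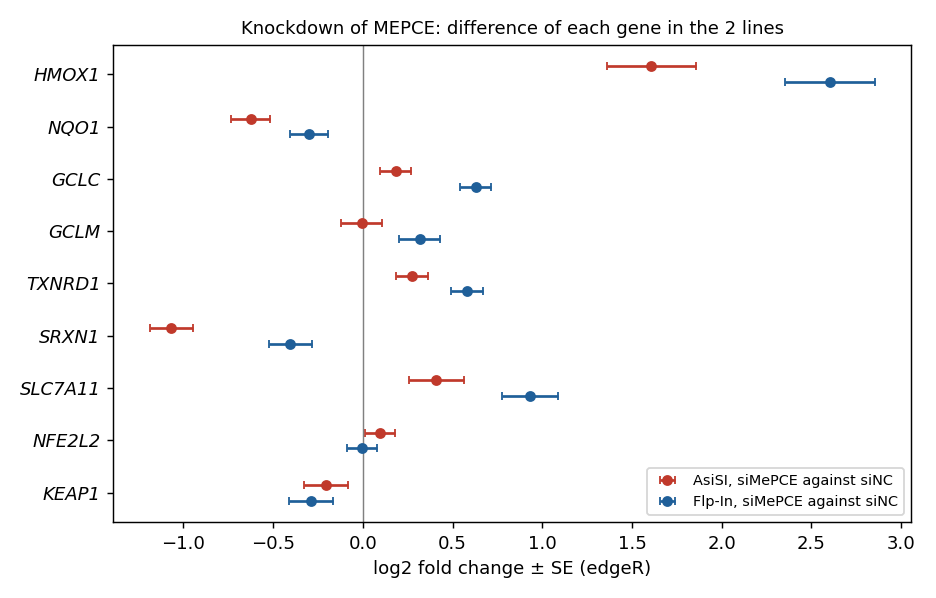
Log2 fold change of siMePCE against siNC for each gene, with SE bars, in AsiSI (red, upper point) and Flp-In (blue, lower point). HMOX1 lies to the right of 0 in both lines (1.61 and 2.60) while NQO1 (-0.62 and -0.30) and SRXN1 (-1.07 and -0.40) lie to the left.

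Under control siRNA the lines differed in several of these genes. SLC7A11 had 162 and 188 CPM in AsiSI siNC, against 88.1 and 83.5 CPM in Flp-In siNC, and was higher by 1.03 (log2, adjusted p = 3.01e-05 by edgeR). GCLC was higher by 0.41 (adjusted p = 0.00106 by edgeR) and TXNRD1 by 0.37 (adjusted p = 0.00296), and NQO1 fell by 0.45 (adjusted p = 0.00271). The libraries of the lines did not overlap for these 4 genes. GCLM (0.18, adjusted p = 0.275 by edgeR), SRXN1 (0.01, 0.979), NFE2L2 (0.01, 0.958) and KEAP1 (-0.17, 0.351) did not pass the test. HMOX1, described only, had 18.9 and 31.4 CPM in AsiSI siNC, against 53.1 and 63.9 CPM in Flp-In siNC (log2 -1.22). Thus 3 of 8 tested members were higher and 1 was lower, where 29.5% of all genes were called (14.4% higher and 15.1% lower). Of the 15744 genes with a symbol and a mean of at least 5 CPM, 22.1% were higher and 25.3% lower. The libraries did not overlap for 6 of 8, against 64.4% of all genes. With shares this high, these counts are no result about the 8 genes as a set. The same Flp-In siNC libraries serve both this comparison and the knockdown in Flp-In.

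Per kb of gene span, introns included, HMOX1 was first of the 9 in AsiSI siMePCE (5.54 ± 3.18 CPM per kb, SD, n = 2) and in Flp-In siMePCE (25.7 ± 1.87). It was sixth in AsiSI siNC (1.82 ± 0.634) and second in Flp-In siNC (4.23 ± 0.552). SRXN1 was first in AsiSI siNC (6.41 ± 0.896) and in Flp-In siNC (6.39 ± 0.215), and second in both siMePCE groups. In AsiSI siMePCE the SD of HMOX1 exceeded its distance to SRXN1 (3.06 ± 0.447), so their order there is within the spread. GCLC was last in all 4 groups, between 0.630 and 0.974 CPM per kb.

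The 5 genes whose log2 CPM followed that of HMOX1 most closely over the 8 libraries, among 15743 genes with a symbol and a mean of at least 5 CPM, were NEAT1 (Pearson r 0.993), ENSG00000274023 (0.990), RNF217 (0.985), ADAMTS9 (0.982) and RBFOX1 (0.981). The points share libraries and fall into 4 groups, so r is a description. NEAT1 had 410 and 607 CPM in AsiSI siMePCE, 297 and 371 CPM in AsiSI siNC, 833 and 971 CPM in Flp-In siMePCE and 470 and 456 CPM in Flp-In siNC. Replicate 2 of NEAT1 was the higher one in both AsiSI groups, as for HMOX1, but the lower one in Flp-In siNC, unlike HMOX1. NEAT1 was picked for its likeness to HMOX1 over these same libraries, so a shared replicate order is no separate result.

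Of 55 other genes of the NRF2 pathway, in 6 roles, 7 rose and 23 fell in AsiSI, and 13 rose and 20 fell in Flp-In, where 40.8% of all genes were called (18.1% higher and 22.7% lower). The median log2 fold change of the list was -0.16 in AsiSI and -0.19 in Flp-In, against 0.04 and 0.03 over all genes tested and -0.18 and -0.11 over the 15744 genes with a symbol and a mean of at least 5 CPM. Of those 15744 genes, 19.1% rose and 41.4% fell in AsiSI, and 23.6% rose and 38.8% fell in Flp-In. The counts of the list and of its roles, given below, were not tested against these shares and are no result about the pathway or a role. Leaving out the genes of which an overlapping row held at least 0.1 of the counts, a selection made after seeing the data, gave a shorter list. In it 2 rose and 10 fell in AsiSI and 4 rose and 9 fell in Flp-In. These counts are not out of 55, and no share of all genes under the same selection was taken, so they are no result either.

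**Figure D4:**
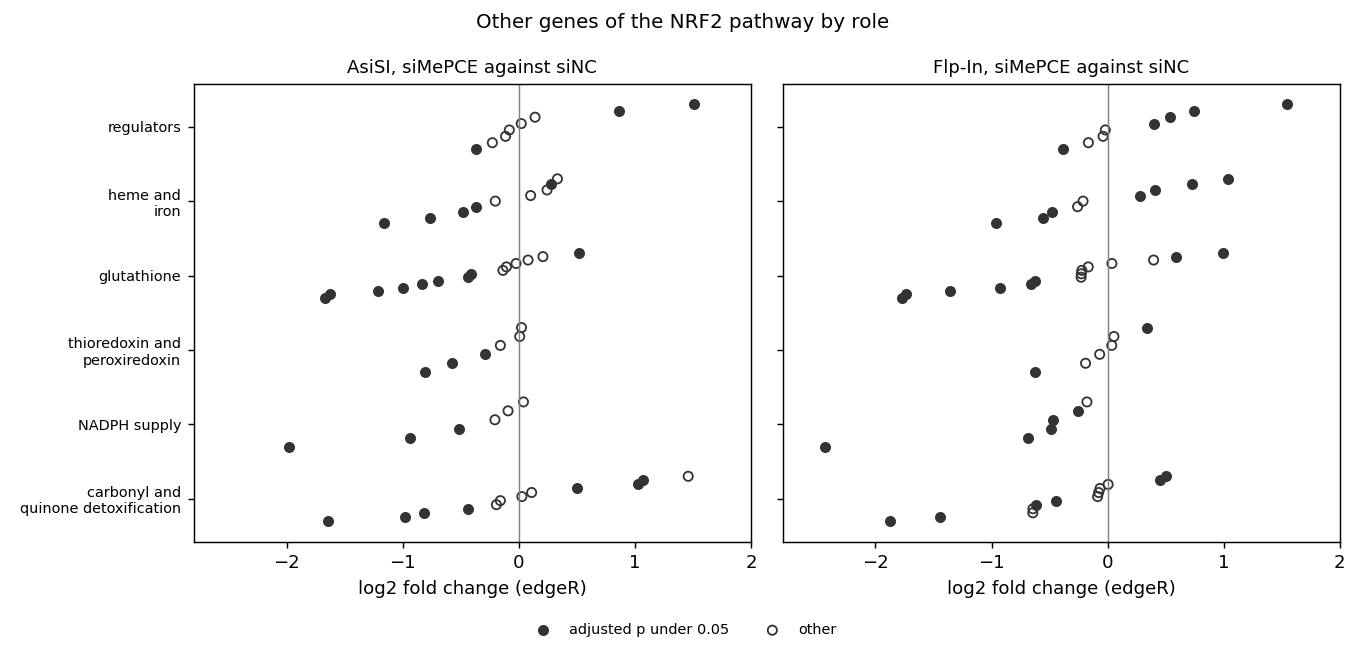
Log2 fold change of siMePCE against siNC for 55 other genes of the NRF2 pathway, by role, in AsiSI (left) and Flp-In (right), 1 point a gene, filled where the adjusted p is under 0.05. All called genes of NADPH supply lie to the left of 0 in both panels, PGD among them at -0.94 and -0.69.

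Among the 8 regulators, 2 rose and 1 fell in AsiSI, and 4 rose and 1 fell in Flp-In. BACH1, the repressor of HMOX1, had 476 and 495 CPM in AsiSI siMePCE, against 272 and 261 CPM in AsiSI siNC, and 415 and 419 CPM in Flp-In siMePCE, against 253 and 246 CPM in Flp-In siNC. It rose by 0.86 in AsiSI and 0.74 in Flp-In (log2), so the repressor and its target were both higher. MAFF, a small MAF partner, rose by 1.51 and 1.55, though the overlapping PLA2G6 held 1.17 times its counts. MAFG fell by 0.37 and 0.38, with SIRT7, on the same strand, at 0.835 times its counts and lower by 0.71 and 0.52. SQSTM1, the autophagy receptor that sequesters KEAP1, rose by 0.53 and RBX1, a subunit of the KEAP1 ligase, by 0.40 in Flp-In. Their AsiSI values were 0.02 and -0.11 and did not pass the test. MRNIP, on the opposite strand, held 0.534 times the counts of SQSTM1.

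Of 9 heme and iron genes, 1 rose and 4 fell in AsiSI, and 4 rose and 3 fell in Flp-In. HMOX2, the constitutive heme oxygenase, fell by 1.16 in AsiSI and 0.48 in Flp-In, the opposite direction to HMOX1. NMRAL1, on the opposite strand, held 0.341 times the counts of HMOX2. FECH, which inserts iron into protoporphyrin to form heme, fell by 0.76 and 0.96, and SLC48A1, a heme transporter, by 0.37 in AsiSI. FTH1, the ferritin heavy chain, had 1868 and 1810 CPM in Flp-In siMePCE, against 864 and 925 CPM in Flp-In siNC, and rose by 1.04. In AsiSI it had 679 and 911 CPM under siMePCE, against 688 and 793 CPM under siNC, which did not pass the test (log2 0.10, adjusted p = 0.451 by edgeR). BLVRA, which reduces biliverdin, rose by 0.73 in Flp-In. BEST1, on the opposite strand, held 0.873 times the counts of FTH1, and an overlapping row 2.43 times those of SLC48A1.

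Of 14 glutathione genes, 1 rose and 8 fell in AsiSI, and 2 rose and 6 fell in Flp-In, where 41.4% and 38.8% of genes of like abundance fell. SLC3A2, the heavy chain that pairs with SLC7A11, rose by 0.52 in AsiSI and 0.99 in Flp-In, with SNHG1 at 0.678 times its counts. GSS, glutathione synthetase, fell by 0.84 in AsiSI, and ABCC3, an exporter of conjugates, by 1.00 in AsiSI and 1.36 in Flp-In. GLRX fell by 1.67 and 1.78 and GPX1 by 1.21 and 0.93. Neither can be told apart from an overlapping row, RHOBTB3 with 1.17 times the counts of GLRX and a row with 18.8 times those of GPX1.

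Of 6 thioredoxin and peroxiredoxin genes, none rose and 3 fell in AsiSI, and 1 rose and 1 fell in Flp-In. PRDX3, the mitochondrial peroxiredoxin, fell by 0.57 in AsiSI and 0.62 in Flp-In. TXNIP, which binds thioredoxin, fell by 0.80 and PRDX1 by 0.30 in AsiSI, and SESN2 rose by 0.34 in Flp-In. Of 6 genes of NADPH supply, none rose in either line, and 3 fell in AsiSI and 5 in Flp-In, where 41.4% and 38.8% of genes of like abundance fell. PGD, an enzyme of the pentose phosphate pathway, had 28.0 and 28.8 CPM in AsiSI siMePCE, against 51.8 and 56.8 CPM in AsiSI siNC, and 28.0 and 28.1 CPM in Flp-In siMePCE, against 44.0 and 46.1 CPM in Flp-In siNC. It fell by 0.94 in AsiSI and 0.69 in Flp-In, and TALDO1 by 0.51 and 0.48, while IDH1 fell by 0.47 and ME1 by 0.26 in Flp-In.

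Of 12 genes of carbonyl and quinone detoxification, 3 rose and 4 fell in AsiSI, and 2 rose and 4 fell in Flp-In. CBR1, a carbonyl reductase, fell by 1.65 in AsiSI and 1.87 in Flp-In, with SETD4 at 1.94 times its counts. EPHX1, an epoxide hydrolase, fell by 0.44 and 0.45, with TMEM63A at 0.629 times its counts and lower by 0.90 and 1.08. UGDH, which makes UDP-glucuronate, rose by 0.50 and 0.51. AKR1C3 rose by 1.03 in AsiSI. AKR1C1 rose by 1.07 in AsiSI and fell by 1.44 in Flp-In at 2.09 CPM or less in every library, and reads of these near-identical AKR1C genes may be split between them.

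Several calls on pathway genes were lost when 1 library was left out, with adjusted p from 0.0507 to 0.543 by edgeR. In AsiSI, SLC48A1 had -0.39 without siMePCE replicate 1. Without siMePCE replicate 2, MAFG had -0.29, SLC48A1 -0.37 and AKR1C1 0.41. AKR1C1 had 1.15 without siNC replicate 1, and without siNC replicate 2 MAFG had -0.19, SLC48A1 -0.28 and AKR1C1 0.99. In Flp-In without siMePCE replicate 1, MAFG had -0.46, RBX1 0.38, HMOX2 -0.44, SESN2 0.17 and ME1 -0.29. Without siMePCE replicate 2, MAFG had -0.32, RBX1 0.41, ME1 -0.24, IDH1 -0.35 and EPHX1 -0.31. RBX1 had 0.32, SESN2 0.23 and ME1 -0.25 without siNC replicate 1, and without siNC replicate 2 MAFG had -0.27, HMOX2 -0.36, ME1 -0.29 and EPHX1 -0.41. Other settings also ended calls on MAFG in AsiSI (-0.34 with DESeq2 size factors, with DESeq2 and with only the 4 libraries compared, -0.29 with the stricter filter) and in Flp-In (-0.30 with the stricter filter). The same held for SLC48A1 in AsiSI with only the 4 libraries compared (-0.34), for AKR1C1 in AsiSI with DESeq2 (1.10) and for ME1 in Flp-In with the stricter filter (-0.18).

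The knockdown effect differed between the lines for 5 of the 55 genes, 1 more positive and 4 more negative in AsiSI. Over all genes 4.17% were called (2.51% and 1.66%). No share of genes of like abundance was taken for this difference, so these counts are no result about the pathway. FTH1 differed by -0.94 (log2, AsiSI minus Flp-In, SE 0.140, adjusted p = 0.00047 by edgeR). This call was kept under all 15 alternatives, with values from -1.17 to -0.75. Of these alternatives, 8 left 1 library in a group, whose own spread is then not measured. The calls for the other 4 were each lost when certain single libraries were left out.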

How the data were processed

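Total RNA, depleted of ribosomal RNA and made into directional libraries per the labels' protocols, was sequenced in 8 libraries, 4 groups of 2. The tools listed in the submitters' processing notes are STAR, featureCounts, SAMtools, Trim Galore and FastQC, with the build hg19 and no versions. Raw counts of 80311 genes were deposited by the authors, and all 8 columns were used. Each gene is 1 interval with its introns. In no library did a nested gene exceed its host, in 3520 of 3520 same-strand and 6889 of 6889 opposite-strand pairs with a mean count of at least 20, so from the values reads appear to count for every overlapping gene regardless of strand. The counting options are not given in the sources used here. Overlapping genes therefore cannot be told apart. Besides the overlaps given above, single rows with at least 0.1 of the counts overlapped BACH1 (0.117 times its counts), GSS (0.176), ABCC3 (0.196), UGDH (0.218) and PRDX1 (0.219). A further such row overlapped each of MEPCE (0.109), SQSTM1 (0.128), FTH1 (0.164), MAFG (0.165), SLC48A1 (0.214), CBR1 (0.322) and EPHX1 (0.360).

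Genes were kept with filterByExpr by group (43321), scaled with TMM factors and fitted with 1 mean for each of the 4 groups in edgeR 4.0.16 (quasi-likelihood test, R 4.3.3), and called at a Benjamini-Hochberg adjusted p under 0.05. The common biological coefficient of variation was 0.121. CPM are given per library. The fit was tested on simulated data, with independent libraries and a far smaller share of changed genes than was called here. That test therefore does not vouch for the calls in these data. Chi-square per degree of freedom between replicates was 4.52 to 11.3, beyond sampling noise. The 9 members and all lists were chosen with earlier results of these data known. Besides the members, up to 3 pathway genes per role with the smallest adjusted p in AsiSI, then up to 2 more in Flp-In, and the 5 genes most like HMOX1 were named. A gene that this rule names is not reported here. The alternatives tried were size factors of DESeq2, removal of mitochondrial and small structured RNA genes, no filter or a stricter filter, DESeq2 1.42.0, the replicate block, leaving out each library and fitting only the 4 libraries compared. Robust spread estimation and the list without overlapped genes were added after seeing the data. Promoters came from RefSeq (GRCh38.p14) and were matched by symbol.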

Additional observations from a re-analysis of the deposited data

Results flagged for a closer look

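By the test of the difference itself in edgeR, the effect of siMePCE against siNC differed between AsiSI and Flp-In for 5 genes of the pathway list. Over all genes 4.17% were called, and no share of genes of like abundance was taken. This count is therefore no result about the pathway. FTH1, the ferritin heavy chain, differed by -0.94 (log2, AsiSI minus Flp-In, adjusted p = 0.00047), from 0.10 in AsiSI and 1.04 in Flp-In. SQSTM1 differed by -0.51 (adjusted p = 0.0465 by edgeR), from 0.02 in AsiSI and 0.53 in Flp-In. This call was lost in 6 of the 8 fits that left out 1 library (-0.32 to -0.54, adjusted p up to 0.232), the exceptions being AsiSI siNC replicate 1 and Flp-In siMePCE replicate 2. GSS differed by -0.61 (adjusted p = 0.0299 by edgeR), from -0.84 in AsiSI and -0.22 in Flp-In. It was lost without AsiSI siMePCE replicate 2, AsiSI siNC replicate 2, Flp-In siMePCE replicate 1 or either Flp-In siNC library (-0.54 to -0.68, adjusted p up to 0.175). ABCC4, an exporter named after its values were seen, differed by -0.51 (adjusted p = 0.0329 by edgeR), from 0.08 in AsiSI and 0.59 in Flp-In. It was lost in 6 of 8 such fits (-0.42 to -0.56, adjusted p up to 0.164), the exceptions being AsiSI siMePCE replicate 2 and AsiSI siNC replicate 1. AKR1C1 differed by 2.51 (adjusted p = 0.0121 by edgeR), from 1.07 in AsiSI and -1.44 in Flp-In, at 2.09 CPM or less. It was lost without AsiSI siMePCE replicate 2 (1.85, adjusted p = 0.0774), Flp-In siMePCE replicate 1 (2.47, 0.0505) or Flp-In siNC replicate 1 (2.44, 0.0515). None of these separates the line from the 4-OHT treatment.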

How the results depend on the processing

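Of the 5 members called in AsiSI siMePCE against AsiSI siNC, 3 were called with robust estimation of the spread and 3 to 5 with 1 library left out, 3 of them without AsiSI siMePCE replicate 2. The 4 members called between the lines under siNC stayed at 4 in all 16 alternatives. The pathway list had 25 to 33 calls in AsiSI and 24 to 36 in Flp-In. The 5 differences between the lines became 9 without a filter on low counts, 9 with a stricter one, 10 with DESeq2, 12 with the replicate block and 1 to 9 with 1 library left out. Some signs turned. GCLM in AsiSI had 0.024 with DESeq2 size factors, 0.024 with DESeq2, 0.020 with only the 4 libraries compared, 0.074 with the stricter filter, and -0.24 to 0.17 with 1 library left out. With 1 library left out, SLC7A11 in AsiSI ranged from -0.055 to 0.74, SQSTM1 from -0.15 to 0.20, FTH1 from -0.13 to 0.28 and ABCC4 from -0.012 to 0.17, and between the lines under siNC SRXN1 ranged from -0.12 to 0.14 and NFE2L2 from -0.063 to 0.097. SQSTM1 in AsiSI had -0.0045 without a filter. FTH1 in AsiSI was called without AsiSI siMePCE replicate 1 (0.28, adjusted p = 0.0198 by edgeR). The causes were not tested. The deviations of same-numbered replicates from their group means had r = 0.209 between the AsiSI groups, -0.002 between the Flp-In groups and 0.318 between the siNC groups, and -0.099 to 0.318 over all pairs of groups. As not every pair was above 0.1, the numbers were not taken to pair the libraries, although HMOX1 was higher in replicate 2 in all 4 groups. The replicate block left the member counts at 5 and 4, with HMOX1 in AsiSI at 1.56. With 2 libraries a group, the spread of any 1 gene is poorly known, and 1 library can decide a call.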
